A study of Mus musculus with 8 samples.

Results

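The genes of cholesterol synthesis and its control by SREBP were examined in mouse bone marrow-derived macrophages with and without the transcription factor Ets1. They were 29 named genes of the 23346 in the expression table, chosen by symbol and sorted into 4 roles. The early mevalonate genes were Acat2, Hmgcs1, Mvk, Pmvk, Mvd, Idi1, Fdps and Ggps1 (8 genes). The late sterol genes were Fdft1, Sqle, Lss, Cyp51, Tm7sf2, Msmo1, Nsdhl, Hsd17b7, Ebp, Sc5d and Dhcr7 (11 genes). The SREBP control genes were Srebf2, Scap, Insig1, Insig2, Mbtps1 and Mbtps2 (6 genes), and the genes of sterol movement and storage were Stard4, Npc1, Npc2 and Soat1 (4 genes). RNA-seq covered 3 control libraries from Ets1 f/f mice, in which both Ets1 alleles are flanked by loxP sites but no Cre is named, and 3 knockout libraries from Ets1 f/f mice that also carried Lyz2-cre, whose Cre is driven from the myeloid lysozyme gene. The cells of both groups came from male mice aged 8 weeks and were grown from marrow in M-CSF at 10 ng/ml with 10% serum for 7 days, and no polarizing agent is named for them. Ets1 binding was mapped by ChIP-seq, which sequences the DNA pulled down with a protein, in wild-type C57 macrophages polarized to an M1 or an M2 state. The ChIP cells also came from mice aged 8 weeks and were grown for 7 days in M-CSF at 10 ng/ml with 10% serum. There was 1 library per state, and the labels do not name the agents. The labels do not say whether the RNA replicates came from separate animals or cultures, so a p-value here reflects variation among libraries that may be only technical.

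Cholesterol is built from acetyl-CoA. The early, or mevalonate, steps make the isoprenoid farnesyl diphosphate, which also feeds protein prenylation, ubiquinone and dolichol. The late steps join it into squalene, close the rings to lanosterol and trim lanosterol to cholesterol. SREBP-2, the product of Srebf2, is held in the endoplasmic reticulum membrane by Scap and the Insig proteins while sterol is plentiful. When sterol falls, Scap carries it to the Golgi, where the proteases encoded by Mbtps1 and Mbtps2 release the part that enters the nucleus and switches on the synthesis genes, often with the factor NF-Y. Macrophages also take in large amounts of cholesterol, which leaves the lysosome through Npc2 and Npc1 and is stored as esters made by Soat1.

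The RNA libraries held between 16897873 and 20259175 reads on genes. The control libraries had 3641, 3337 and 2869 normalized counts of Ets1 itself and the knockout libraries 825, 755 and 645, a 4.43-fold lower mean. These counts cover the whole gene and do not separate the removed segment from the rest. The 10 macrophage markers were all detected, and their summed normalized counts ranged from 333595 to 346363 in controls and from 395032 to 412153 in knockouts. Of these 10 markers 2 rose (Adgre1 and Lyz2), 4 fell (Csf1r, C1qa, C1qb and Mrc1) and none was at 0. Adgre1 and Lyz2 had mean control levels of 68331 and 138291 and knockout levels of 101872 and 203340 normalized counts. Lyz2 is also the gene that drives Cre, named for the knockout mice alone, and the part of that allele in its count was not tested. Of 10 marker lists for other cell types, 8 were lower in every knockout library than in every control library. Over those 10 lists, 35 of 57 tested markers fell and 0 rose, while over all tested genes 10.5% fell and 10.4% rose. The stromal list, in which 8 of 8 markers fell and none was at 0, summed to between 10448.5 and 15399.5 in controls and to between 3395 and 4117 in knockouts. The neutrophil list (6 of 9 fell, none at 0) went from 19570.3–23024 to 11428–11927, and the B cell list (6 of 8 fell, Fcer2a at 0 in knockouts) from 822–1067 to 603–628. The megakaryocyte list (5 of 6 fell, none at 0) went from 2931–4853 to 1091–1270. The part these other cells had in the results below was not tested, and in bulk samples fewer cells of a type and less RNA per cell cannot be told apart.

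Most of the sterol genes had Ets1 on their promoters in wild-type macrophages, as did most expressed genes. A peak overlapped the 1 kb on either side of the start site for 24 of 29 genes in the M1 library and 25 of 29 in the M2 library. The shares over the 20595 genes tested for expression were 46.3% and 48.1%. Among protein-coding genes with a mean of at least 100 normalized counts the shares were 75.1% and 77.1%, and 23 and 24 of the 28 sterol genes at that level had a peak. That background was added after the data were seen, and against it the share of sterol genes was near what expressed genes show.

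By role, both libraries had a peak at 7 of 8 early mevalonate genes, 8 of 11 late sterol genes, 5 of 6 SREBP control genes and 3 of 4 genes of movement and storage. At all 23 genes with a peak in both states the M1 and M2 peaks overlapped by at least 1 bp, and at 21 the overlap covered at least 50% of each peak. Ebp, whose enzyme shifts the sterol ring's double bond, had a peak in the M1 list only, with its summit 585 bp into the gene. Nsdhl and Soat1 had one in the M2 list only, and Pmvk, Fdft1 and Insig2 had none in the window in either list. The nearest M1 and M2 summits lay 1489 and 2278 bp into Pmvk and 4655 and 4659 bp into Insig2. Both lay 1595 bp into Fdft1. Tm7sf2 was counted by peaks at its deposited start, chr19:6077197. Its RefSeq start, used for the motifs below, is at 6067850, and it shares 9356 bp with Vps51 on the same strand. Its peaks therefore cannot be given to it with certainty. With 1 library per state, the difference between M1 and M2 has no replicate check.

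The peaks sat close to the start. Over the 23 genes with both peaks the distance from summit to start ranged from 7 to 667 bp, with a median of 110 bp. Fold enrichment at the summit, which is the authors' own value per peak, ranged from 6.93 to 19.0 in M1 and from 5.68 to 16.1 in M2. The strongest belonged to Idi1, the isomerase that readies the isoprene unit for chain growth, at 19.0 in M1 and 16.1 in M2, within the top 0.455% and 0.835% of those lists. Acat2 (16.8 in M1), Dhcr7 (16.8), Ggps1 (15.5) and Srebf2 (15.2) followed. Fdps had 7.11 in M1 and 5.68 in M2. The starts of Mvk and Mmab lie within 1 kb of each other, as do those of Ggps1 and Arid4b, Nsdhl and Cetn2, Hsd17b7 and 3110045C21Rik, Dhcr7 and Nadsyn1, and Npc2 and Isca2, so a peak there cannot be given to 1 gene of the pair.

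**Figure D1:**
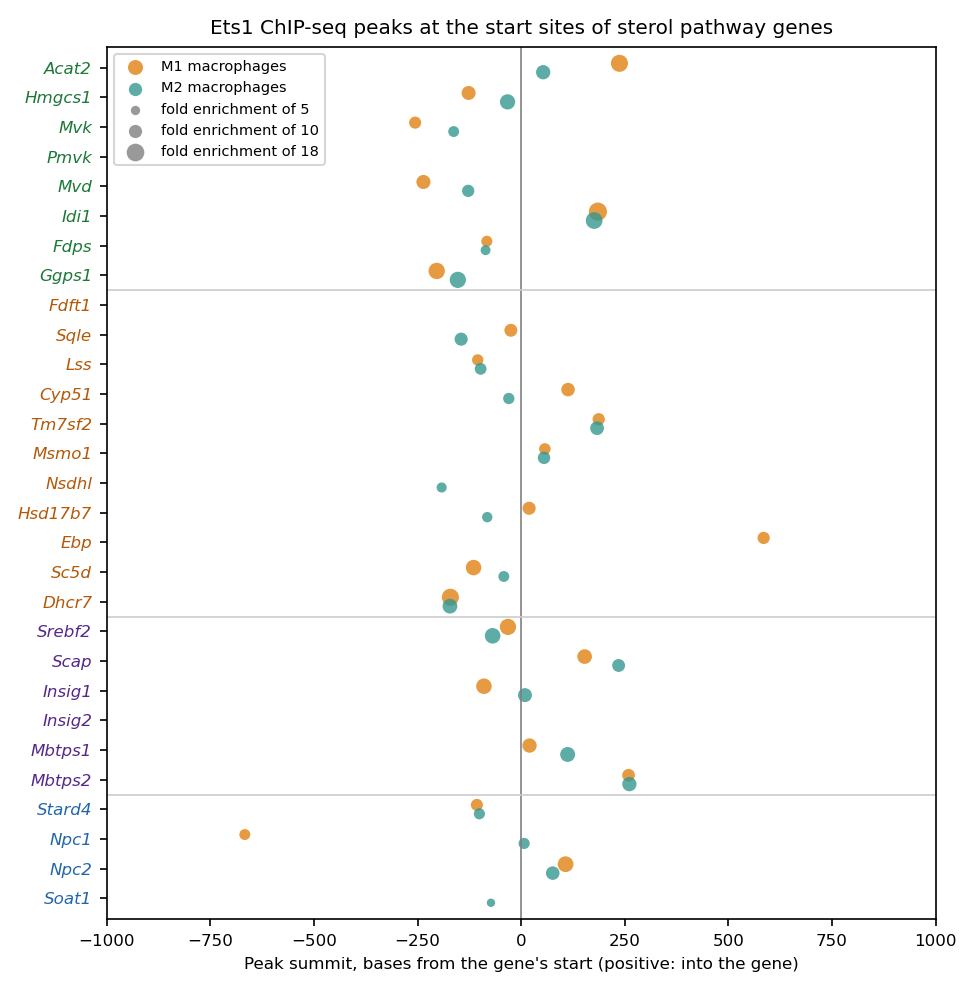
Position of the Ets1 ChIP-seq peak summit at each sterol gene, in bases from the gene's start (x axis, positive into the gene), for the M1 and M2 libraries; the size of a point is the fold enrichment. The summits of genes with both peaks lie 7 to 667 bases from the start, Ebp stands at 585, the strongest M1 peak of Npc1 at -667, and 3 genes have no point.

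Of 4 motifs searched in the promoters of the sterol genes, the NF-Y box was the one most of them held. RefSeq promoters (build GRCm38.p6, 250 bases before to 50 after the start) were matched for 24 of the 29 genes. Some genes had several RefSeq starts, which made 30 promoters. A gene was counted if any of its promoters held the motif. The letters CCAAT, the NF-Y box, were found on either strand in 20 of 24 genes and 20 of 30 promoters. They were found in 37.4% of 32851 promoters and 42.9% of 7574 expressed protein-coding genes, a background added after the data were seen. The ETS motif CCGGAAG was found in 5 of 24 genes and 5 of 30 promoters (Hmgcs1, Dhcr7, Insig2, Mbtps2 and Npc2). It was found in 8.86% of promoters and 22.5% of expressed genes. The Insig2 matches lay at a RefSeq start at 121327678, not at the deposited start, 121332589. The E-box CACGTG was found in 5 of 24 genes and 6 of 30 promoters (Hsd17b7, Sc5d, Dhcr7, Scap and Insig1), against 7.15% and 12.5%. The letters TCACNCCAC, searched as the sterol regulatory element, were found in Hmgcs1 alone of the 24 genes, against 1.24% and 1.32%. Other spellings of this element, and of the ETS motif, were not searched, so a promoter without a match may still hold a related site. Each motif was searched on both strands, no matches of different motifs overlapped in the promoters printed here, and a match is a description of the letters in this window.

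Promoters are shown for the genes that changed in the knockout and had a peak in both lists, where RefSeq gave a sequence. They are written 5′ to 3′ on the gene's strand with the 4 motifs in capitals (CTTCCGG and ATTGG are the reverse strand of the ETS motif and of the NF-Y box). The windows were chr5:4104648-4104947 on the minus strand for Cyp51, chr9:42264251-42264550 on the minus strand for Sc5d, chr12:84773063-84773362 on the minus strand for Npc2, chr10:76531355-76531654 on the plus strand for Lss and chrX:157598666-157598965 on the minus strand for Mbtps2. Cyp51, Sc5d and Lss held NF-Y boxes and no match to CCGGAAG, the only ETS spelling searched. Npc2 held NF-Y boxes and the ETS motif, which started 135 bases before the RefSeq start and inside both Ets1 peaks (chr12:84772881-84773465 in M1 and chr12:84772884-84773352 in M2, mm10). Mbtps2 held the ETS motif starting 15 bases before the start and no NF-Y box. Its peaks (chrX:157598322-157598680 and chrX:157597967-157598691) lay on the gene side of the start, so the motif was outside both.
Cyp51: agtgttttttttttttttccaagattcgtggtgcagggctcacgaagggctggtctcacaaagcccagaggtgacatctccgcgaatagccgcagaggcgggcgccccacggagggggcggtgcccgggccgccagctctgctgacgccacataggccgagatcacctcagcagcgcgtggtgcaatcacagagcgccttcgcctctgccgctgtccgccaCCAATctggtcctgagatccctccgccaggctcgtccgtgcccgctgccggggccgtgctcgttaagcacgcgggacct
Sc5d: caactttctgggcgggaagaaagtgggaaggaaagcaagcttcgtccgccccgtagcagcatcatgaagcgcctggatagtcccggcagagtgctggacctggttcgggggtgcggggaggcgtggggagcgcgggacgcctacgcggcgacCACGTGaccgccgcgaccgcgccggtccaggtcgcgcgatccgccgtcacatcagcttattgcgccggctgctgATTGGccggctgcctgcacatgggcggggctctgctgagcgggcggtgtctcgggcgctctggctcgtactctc
Npc2: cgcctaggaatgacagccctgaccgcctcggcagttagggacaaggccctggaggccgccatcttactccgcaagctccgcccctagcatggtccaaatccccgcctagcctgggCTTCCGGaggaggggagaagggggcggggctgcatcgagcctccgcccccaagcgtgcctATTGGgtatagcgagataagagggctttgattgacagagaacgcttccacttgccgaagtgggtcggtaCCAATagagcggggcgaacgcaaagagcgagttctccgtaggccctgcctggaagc
Lss: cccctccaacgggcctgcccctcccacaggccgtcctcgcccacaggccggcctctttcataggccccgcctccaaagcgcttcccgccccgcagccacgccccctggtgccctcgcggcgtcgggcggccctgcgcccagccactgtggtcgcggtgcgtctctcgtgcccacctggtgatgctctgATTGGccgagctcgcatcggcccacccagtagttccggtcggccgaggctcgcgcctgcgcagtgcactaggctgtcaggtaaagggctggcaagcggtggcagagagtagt
Mbtps2: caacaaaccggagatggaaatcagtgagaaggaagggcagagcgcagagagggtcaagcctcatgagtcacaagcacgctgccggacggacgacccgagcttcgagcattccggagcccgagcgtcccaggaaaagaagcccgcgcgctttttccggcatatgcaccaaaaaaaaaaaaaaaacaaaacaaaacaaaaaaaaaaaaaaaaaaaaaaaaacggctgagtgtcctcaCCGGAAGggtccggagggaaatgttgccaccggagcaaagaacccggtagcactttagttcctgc

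The promoter of Hmgcs1, the synthase that makes HMG-CoA, was chosen after its letters were seen. Among the 24 genes searched it alone matched TCACNCCAC, the 1 spelling of the sterol regulatory element that was searched. It spans chr13:119690101-119690400 on the plus strand and has the sterol element starting 137 bases before the RefSeq start, an ETS motif starting 87 bases before it and 4 NF-Y boxes. Both Ets1 peaks there (chr13:119690081-119690811 in M1 and chr13:119690065-119690811 in M2, mm10) covered the whole window.
Hmgcs1: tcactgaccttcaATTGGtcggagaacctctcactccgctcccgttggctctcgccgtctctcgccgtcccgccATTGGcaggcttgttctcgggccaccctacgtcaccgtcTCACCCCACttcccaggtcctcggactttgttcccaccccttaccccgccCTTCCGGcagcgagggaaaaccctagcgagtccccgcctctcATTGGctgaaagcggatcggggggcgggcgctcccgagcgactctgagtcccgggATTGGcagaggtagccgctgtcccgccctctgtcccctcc

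All 29 genes passed the filter on low values. Per kb of the gene length the authors give, the mean control level ran from 7.54 normalized counts for Fdps to 2273 for Npc2. The 5 highest were Npc2 at 2273, Soat1 at 710.4, Srebf2 at 582, Npc1 at 577 and Insig1 at 312 per kb, and the sterol carrier Stard4 stood at 177. The synthesis enzymes ranged from 7.54 to 222 per kb among early mevalonate genes (highest Hmgcs1) and from 30.5 to 182 per kb among late sterol genes (highest Ebp).

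**Figure D2:**
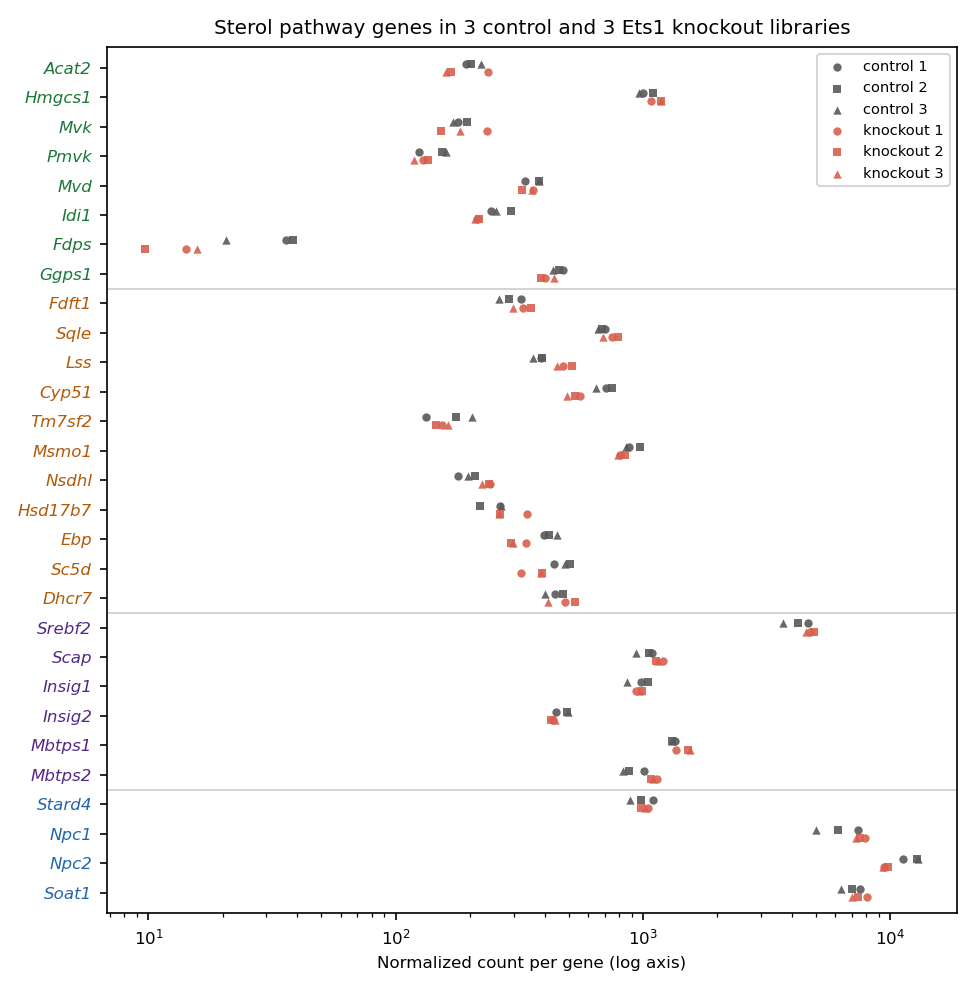
Normalized count of each sterol gene (x axis, log scale) in the 3 control (grey) and 3 knockout (red) libraries, with the 4 roles separated by lines. Npc2, Npc1 and Soat1 lie farthest right, and Fdps lies alone at the low end, with all libraries under 40 and the knockouts to the left of the controls.

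Without Ets1, 7 of the 29 genes passed the threshold (limma adjusted p under 0.05 over all tested genes), 2 higher and 5 lower. The share of members, 24.1%, lay near the 20.9% of all tested genes and below the 32.2% of protein-coding genes with a mean of at least 100 (a background added after the data were seen). The shares over all tested genes were 10.4% higher and 10.5% lower. Lss and Mbtps2 rose, and Fdps, Cyp51, Ebp, Sc5d and Npc2 fell. The control and knockout libraries did not overlap for 13 genes, against 36.8% of tested genes. The median log2 fold change was 0.05 over the 29 genes and -0.04 over all tested genes. Among protein-coding genes with a mean of at least 100 it was also 0.05. The median absolute log2 fold change was 0.17, against 0.35 over all tested genes and 0.215 among those protein-coding genes. The rate of calls was near that of other genes. The 2 higher calls were lost with scaling by total reads, with TMM scaling, in edgeR with TMM, in limma voom and without any library other than control 1, each of which left 0 sterol genes called higher. The authors' deposited table called the same 7 genes at an adjusted p under 0.05. Its values match the DESeq2 alternative used here with the sign reversed. For Cyp51 the log2 fold changes were 0.407 and -0.407, with a DESeq2 adjusted p of 0.00337 in each. The shared calls are therefore no separate check.

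**Figure D3:**
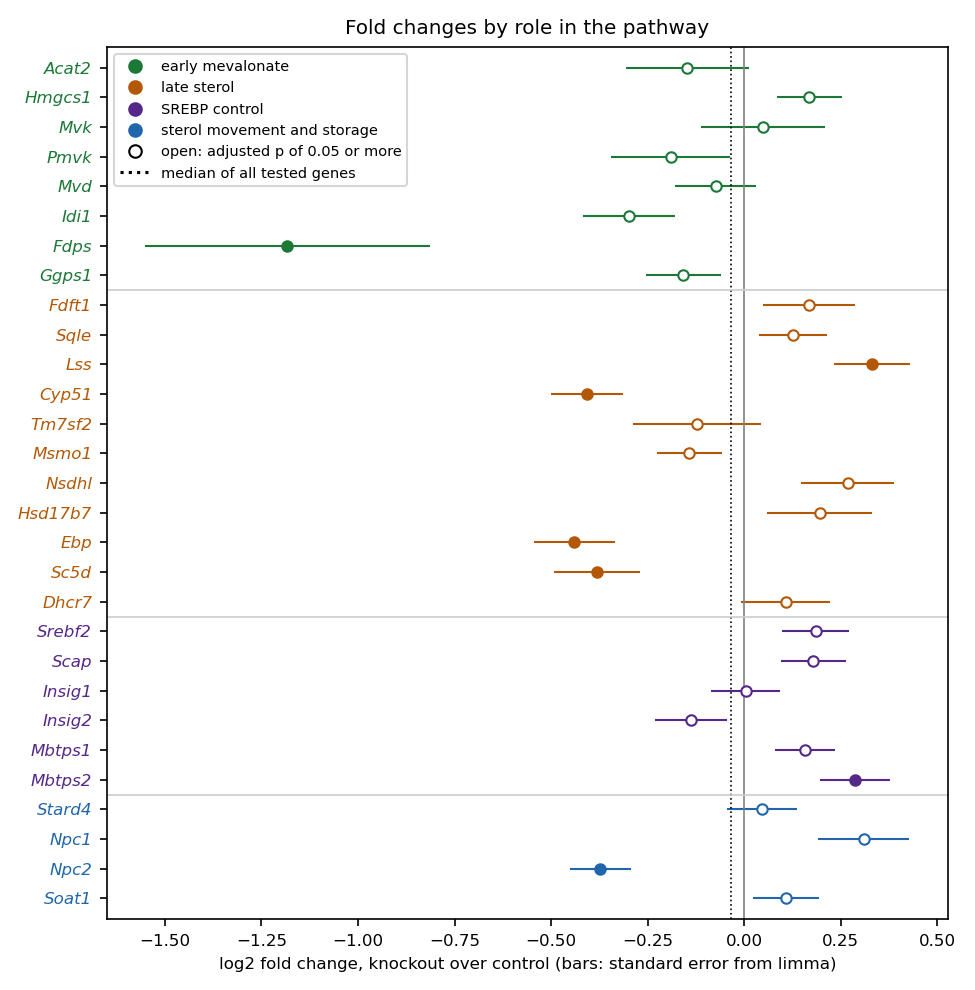
Log2 fold change of knockout over control for each gene (x axis), with bars for the standard error from limma; filled points have an adjusted p under 0.05 and the dotted line is the median of all tested genes, -0.04. Fdps lies at -1.18, the other called genes lie between -0.44 and 0.33, and most open points lie within 0.2 of 0. The median of protein-coding genes with a mean of at least 100, not drawn, is 0.05.

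Of the early mevalonate genes, 0 rose, 1 fell and 7 did not pass. The gene that fell was Fdps (ENSMUSG00000059743, chr3:89093588-89101959, mm10), farnesyl diphosphate synthase, which stands where the sterol and prenylation branches part. The controls had 36.1, 38.3 and 20.7 normalized counts and the knockouts 14.1, 9.73 and 15.6, that is 31.7 ± 9.62 and 13.2 ± 3.08 (mean ± SD, n = 3). Every knockout library lay below every control library, with control 3 nearest to them. The log2 fold change was -1.18 (SE 0.37, limma adjusted p = 0.0389). These values rest on few reads, 102 in all controls and 37 in all knockouts, and the sources used here do not give how reads with several genomic matches were counted. The call was lost when any library other than control 3 was left out, with limma adjusted p between 0.0680 and 0.169.

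Hmgcs1, the highest of the early genes, had 1003, 1093 and 964 normalized counts in controls and 1078, 1182 and 1179 in knockouts. Knockout 1 fell within the control range, and the difference did not pass (log2 fold change 0.17, SE 0.08, limma adjusted p = 0.179). Idi1 had 243, 293 and 255 in controls and 213, 218 and 209 in knockouts. These did not overlap, yet the test did not pass (log2 fold change -0.30, SE 0.12, limma adjusted p = 0.0972), and it did without control 1 (0.0462) and with scaling by total reads (0.0247). Ggps1, which makes geranylgeranyl diphosphate for prenylation, stood at 474, 457 and 433 against 401, 386 and 436, and passed only with scaling by total reads (log2 fold change -0.16, limma adjusted p = 0.285 and 0.0479).

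The first and middle enzymes of the mevalonate steps overlapped between groups. Acat2, an acetyl-CoA acetyltransferase whose reads may be shared with its near-identical copy Acat3, had 193, 203 and 221 in controls and 237, 167 and 160 in knockouts. Mvk, the mevalonate kinase, had 179, 194 and 171 against 235, 153 and 182. For both, knockout 1 lay above all controls while knockout 2 lay below them, so the knockouts spread wider than the difference. Phosphomevalonate kinase (Pmvk) and the decarboxylase Mvd had log2 fold changes of -0.19 and -0.07 (limma adjusted p = 0.423 and 0.659).

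Of the late sterol genes, 1 rose, 3 fell and 7 did not pass. Lss (ENSMUSG00000033105, chr10:76531588-76557138), lanosterol synthase, which closes the sterol rings, had 388, 392 and 361 normalized counts in controls and 474, 517 and 447 in knockouts (380 ± 17.1 and 479 ± 35.0, n = 3). Every knockout library was above every control, a 1.26-fold higher mean (log2 fold change 0.33, SE 0.10, limma adjusted p = 0.0321). The call was lost with any library other than control 1 left out (limma adjusted p 0.0571 to 0.144), with scaling by total reads (0.172) or by TMM (0.0526), in limma voom (0.0615) and in edgeR's quasi-likelihood test with TMM (0.0577), and kept in edgeR with upper quartile scaling (0.0353).

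Cyp51 (ENSMUSG00000001467, chr5:4081145-4104746), lanosterol 14-alpha-demethylase, acts directly after Lss and went the other way. It had 706, 746 and 646 normalized counts in controls and 558, 531 and 493 in knockouts (699.7 ± 50.2 and 527 ± 32.8, n = 3). The groups lay well apart, and the knockout mean was 0.754 of the control mean (log2 fold change -0.41, SE 0.09, limma adjusted p = 0.00927). The call was lost without control 2 (limma adjusted p = 0.0694), knockout 2 (0.0533) or knockout 3 (0.0587). Akap9 overlaps Cyp51 by 166 bp on the opposite strand and rose (1035 to 1282 normalized counts, log2 fold change 0.32, limma adjusted p = 0.0451), and the use of strand in counting is not stated.

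Ebp and Sc5d, the isomerase and the desaturase that follow each other near the end of the chain, both fell. Ebp (ENSMUSG00000031168, chrX:8185329-8193512) had 397, 416 and 448 normalized counts in controls and 337, 294 and 298 in knockouts (420.4 ± 25.8 and 309.9 ± 23.9, n = 3). Sc5d (ENSMUSG00000032018, chr9:42251595-42264256) had 437, 509 and 483 in controls and 320, 392 and 387 in knockouts (476 ± 36.6 and 366 ± 40.2, n = 3). For both genes every knockout library lay below every control. The log2 fold changes were -0.44 for Ebp (SE 0.11, limma adjusted p = 0.0111) and -0.38 for Sc5d (SE 0.11, limma adjusted p = 0.0295). Ebp lost its call without control 2 (limma adjusted p = 0.0572), knockout 2 (0.0694) or knockout 3 (0.0576), and Sc5d without any library other than control 1 (0.0579 to 0.146).

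The other late enzymes did not pass. Nsdhl, a dehydrogenase that removes the methyl groups of the ring together with Msmo1 and Hsd17b7, had 179, 208 and 195 normalized counts in controls and 240.5, 238 and 222 in knockouts. Its groups did not overlap (log2 fold change 0.27, SE 0.12, limma adjusted p = 0.143). Msmo1, the oxidase of the same complex, had 876, 972 and 853 against 806, 843 and 795, lower without overlap (log2 fold change -0.14, limma adjusted p = 0.266), and passed only with scaling by total reads (0.0328). Hsd17b7 had 265, 219 and 268 against 338, 265 and 262, with knockout 1 alone above the controls. The fitted values for these demethylating enzymes lay on both sides of 0, and none passed the threshold.

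Squalene synthase (Fdft1) and squalene epoxidase (Sqle), which begin the late steps, had log2 fold changes of 0.17 and 0.13 (limma adjusted p = 0.353 and 0.342). Fdft1 had 322, 287 and 261 normalized counts in controls and 326, 352 and 298 in knockouts, and Ctsb, a gene of about 154772 normalized counts in controls, overlaps it by 774 bp on the opposite strand. Tm7sf2, a sterol C14 reductase, had 132, 176 and 204 in controls and 154, 146 and 163 in knockouts, and shares 9356 bp with Vps51 on the same strand, so its count is uncertain. Dhcr7, the last reductase, had 441, 477 and 401 against 482, 533 and 411, with the groups overlapping.

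Of the SREBP control genes, 1 rose, 0 fell and 5 did not pass. Mbtps2 (ENSMUSG00000046873, chrX:157535371-157598715), the membrane protease that makes the second cut in SREBP, had 1014, 880 and 828 normalized counts in controls and 1136, 1077 and 1098 in knockouts (907 ± 96.0 and 1104 ± 29.8, n = 3). All knockout libraries were above all controls, with control 1 nearest. The mean was 1.22-fold higher (log2 fold change 0.29, SE 0.09, limma adjusted p = 0.0397). The call was lost without any library other than control 1 (limma adjusted p 0.0905 to 0.156), with scaling by total reads (0.211) or by TMM (0.0556), in limma voom (0.0668) and in edgeR's quasi-likelihood test with TMM (0.0575), and kept in edgeR with upper quartile scaling (0.0426).

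Srebf2 itself had 4638, 4223 and 3688 normalized counts in controls and 4729.6, 4908 and 4576 in knockouts (4183 ± 476 and 4738 ± 166, n = 3). Control 1 lay inside the knockout range, and the difference did not pass (log2 fold change 0.19, SE 0.09, limma adjusted p = 0.160) except without control 1 (0.0180). Scap had 1091, 1057 and 936 in controls and 1203, 1130 and 1154 in knockouts. Mbtps1, the protease of the first cut, had 1343, 1304 and 1315 against 1358, 1522 and 1547. Both were higher without overlap, with log2 fold changes of 0.18 and 0.16 that did not pass (limma adjusted p = 0.158 and 0.186).

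The Insig genes, whose proteins hold Scap back, stood apart from that direction. Insig1, also a SREBP target, had 981, 1049.9 and 864 normalized counts in controls and 936, 989 and 970.2 in knockouts, a log2 fold change of 0.00 (SE 0.09, limma adjusted p = 0.981). Insig2 had 444, 492 and 497 in controls and 432, 426 and 442 in knockouts, lower without overlap and not past the threshold (log2 fold change -0.14, limma adjusted p = 0.334). In all 6 SREBP control genes control 1 was the control library nearest to the knockout mean, as it was in 17 of the 29 genes and in 48.2% of all tested genes.

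Of the genes of movement and storage, 0 rose, 1 fell and 3 did not pass. Npc2 (ENSMUSG00000021242, chr12:84754562-84773152), the soluble lysosomal protein that binds cholesterol and hands it to Npc1, had 11314, 12774 and 12993 normalized counts in controls and 9437, 9813 and 9349 in knockouts (12361 ± 913 and 9533 ± 247, n = 3). The groups lay apart, and the knockout mean was 0.771 of the control mean (log2 fold change -0.37, SE 0.08, limma adjusted p = 0.00556). The call was lost only without control 2 (limma adjusted p = 0.0560).

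Npc1, the membrane protein that receives this cholesterol, had 7433, 6149.8 and 4987 normalized counts in controls and 7934, 7540.5 and 7254 in knockouts. Control 1 lay within the knockout range and the controls were widely spread (6189.9 ± 1224 against 7576 ± 341, n = 3). The log2 fold change of 0.31 (SE 0.12) did not pass (limma adjusted p = 0.0835), but did without control 1 (0.00219). Soat1, which esterifies cholesterol, had 7549.6, 6990.3 and 6326 against 8072, 7412 and 6996, and the sterol carrier Stard4 had 1097, 986 and 884 against 1047, 983 and 1023. Both overlapped between groups (log2 fold changes 0.11 and 0.05, limma adjusted p = 0.409 and 0.759).

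Set side by side, the early mevalonate genes had a median log2 fold change of -0.15, with 6 of 8 values below 0. The late sterol genes had 0.11 (5 of 11 below 0), the SREBP control genes 0.17 (1 of 6 below 0) and the genes of movement and storage 0.08 (1 of 4 below 0). For each library the median deviation from the control mean was taken over the genes of a role. For the early mevalonate genes the controls had -0.05, 0.09 and -0.06 and the knockouts -0.10, -0.24 and -0.18. For the SREBP control genes the controls had 0.06, 0.03 and -0.13 and the knockouts 0.11, 0.17 and 0.15. In those 2 roles, with the deposited scaling, the knockout libraries lay outside the control range on opposite sides, while the other roles overlapped. How often the medians of other sets of genes separate in this way was not counted. The median log2 fold change of protein-coding genes with a mean of at least 100 was 0.05. No test was made over the roles. With scaling by total reads, which moves the median of all genes by -0.13 (log2), the 4 medians became -0.29, -0.025, 0.035 and -0.056. The sign of the late sterol and storage medians thus depends on the scaling, and the SREBP control median shrank from 0.17 to 0.035. The medians of single libraries were not recomputed with that scaling, so their separation is described for the deposited scaling alone.

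**Figure D4:**
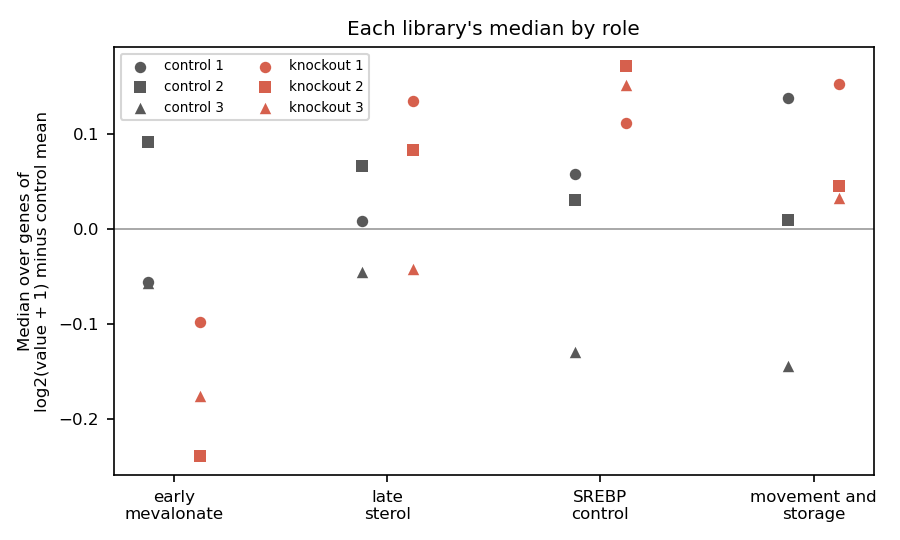
For each role, the median over its genes of log2(normalized count + 1) minus the control mean (y axis), with 1 point per library (grey controls, red knockouts). With the deposited scaling, the knockouts lie below all controls for early mevalonate genes, from -0.10 to -0.24. They lie above them for SREBP control genes, from 0.11 to 0.17, and overlap the controls in the other roles.

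Ratios of 2 genes within a library do not depend on how libraries are scaled, and they set neighbouring steps side by side. They are ratios of normalized counts, not per kb. These pairs were chosen after the values were seen and carry no test. Of 17 pairs of neighbouring enzymes, the groups did not overlap in 7, with the ratio higher in knockouts in 3 and lower in 4. Over all pairs of protein-coding genes with a mean of at least 100, a background added after the data were seen, the groups did not overlap in 50.5%, so separation as such was no more common among the neighbouring steps. The ratio of Lss to Cyp51 stood at 0.550, 0.526 and 0.558 in controls, against 0.850, 0.973 and 0.907 in knockouts. The knockout mean was 1.67 times the control mean in this pair of consecutive enzymes, and the spread within each group (SD 0.0169 and 0.0614) is small beside it. The ratio of Hsd17b7 to Ebp was 0.667, 0.527 and 0.597 against 1.00, 0.901 and 0.876, or 1.55 times higher.

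Of the other separated pairs, Msmo1 to Nsdhl went from 4.90, 4.67 and 4.37 to 3.35, 3.53 and 3.57. The ratio of Sc5d to Dhcr7, the closing steps, went from 0.990, 1.07 and 1.20 to 0.664, 0.735 and 0.940. Sqle to Lss was 0.868 of its control mean, and the remaining 2 separated pairs held Fdps (Idi1 to Fdps and Fdps to Fdft1). Among 4 pairs of partner proteins, Npc1 to Npc2 separated. Its controls had ratios of 0.657, 0.481 and 0.384 and its knockouts 0.841, 0.768 and 0.776, with control 1 nearest to the knockouts. Srebf2 to Scap was 4.06 on average in controls and 4.08 in knockouts, and this pair, Insig1 to Insig2 and Mbtps1 to Mbtps2 overlapped.

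**Figure D5:**
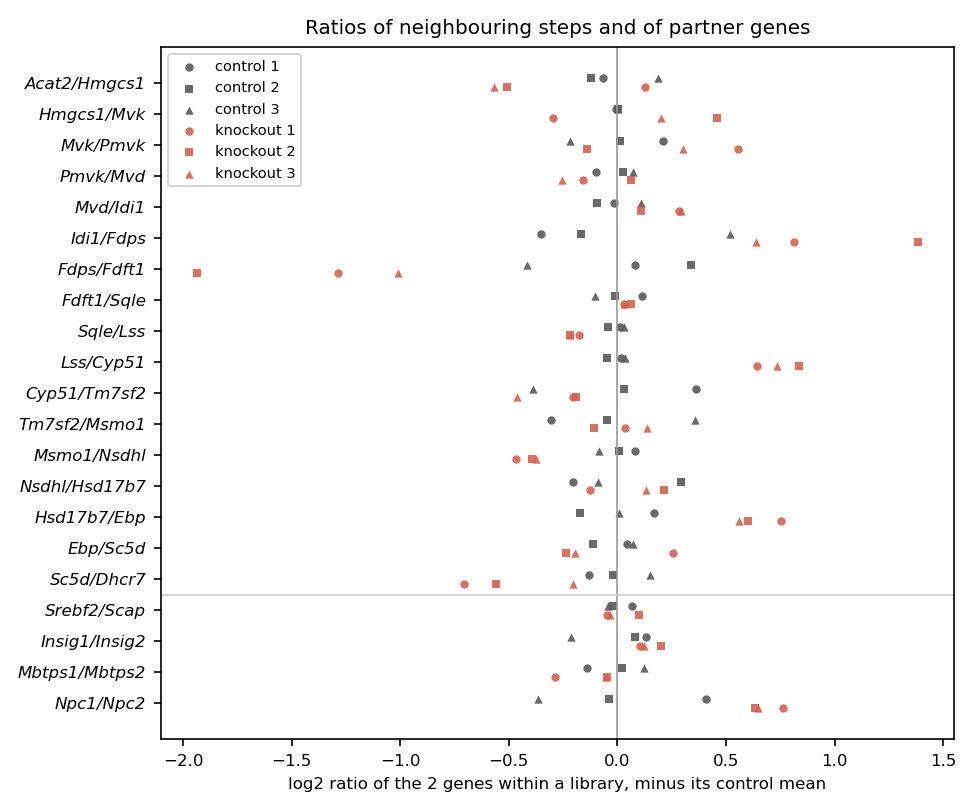
Log2 ratio of the normalized counts of 2 genes within a library, minus its control mean (x axis), for neighbouring steps (above the line) and partner genes (below it), with 1 point per library. Lss/Cyp51, Hsd17b7/Ebp, Idi1/Fdps and Npc1/Npc2 lie to the right in all 3 knockouts, and Fdps/Fdft1, Sqle/Lss, Msmo1/Nsdhl and Sc5d/Dhcr7 lie to the left.

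Peaks lay at genes that changed and at genes that did not pass. Of the 7 genes that changed, 6 had a peak in both lists and 1 in a single list, and of the 22 that did not pass, 17 had both, 2 had one list's peak and 3 had neither. Cyp51 had fold enrichments of 10.6 in M1 and 7.37 in M2, Npc2 14.3 and 10.6, Sc5d 13.9 and 6.87, Mbtps2 9.28 and 11.7, and Lss 7.47 and 8.02. Idi1, Acat2, Dhcr7, Ggps1 and Srebf2, with the strongest M1 peaks, did not pass the expression test. The ChIP cells were polarized and wild type, and the RNA cells were not described as polarized, so the assays may describe different states.

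The SREBP pathway also drives fatty acid synthesis through SREBP-1. Of 17 genes of that branch, 4 rose, 2 fell and 11 did not pass, with a median log2 fold change of 0.12. The calls over all tested genes were 20.9% (10.4% higher and 10.5% lower), and 32.2% among protein-coding genes with a mean of at least 100. Scd1, a stearoyl-CoA desaturase, fell from 307 ± 54.1 to 75.1 ± 26.9 normalized counts (n = 3, log2 fold change -2.06, SE 0.23, limma adjusted p = 6.71e-05), while its paralog Scd2 rose from 6752 ± 891 to 9899.6 ± 624 (log2 fold change 0.56, limma adjusted p = 0.00192). The elongase Elovl6 fell from 180.5 ± 21.3 to 96.3 ± 8.11 (log2 fold change -0.90, limma adjusted p = 0.00173). Gpam, which starts glycerolipid synthesis, rose from 265 to 355 (log2 fold change 0.43, limma adjusted p = 0.0285), a call lost with scaling by total reads (0.104) and without any library other than control 1. Scaling by total reads gave 1 higher and 4 lower in this list. Desaturase copies share sequence, so reads may be split between them. Marker totals of stromal, neutrophil and B cells were also lower in knockouts, as given above, and their part in these changes was not tested.

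In the lists of isoprenoid users, sterol-regulated degradation and sterol carriers, the calls are likewise read against the 20.9% of all tested genes. Of 13 genes that use isoprenoids, 2 rose, 1 fell and 10 did not pass (median 0.06). Pggt1b, the catalytic subunit of the geranylgeranyl transferase of small GTPases, rose from 898 ± 135 to 1464 ± 34.9 (log2 fold change 0.72, limma adjusted p = 0.000532). Dhdds, of dolichol synthesis, rose from 997 to 1257 (log2 fold change 0.34, limma adjusted p = 0.0158) and Rabggta, of the Rab geranylgeranyl transferase, fell from 552 to 431 (log2 fold change -0.35, limma adjusted p = 0.0263). Dhdds and Rabggta each lost the call in 5 of the 17 alternatives, without control 2, knockout 1, knockout 2 or knockout 3 among them, with limma adjusted p up to 0.0884 and 0.116.

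Of 14 genes of sterol-regulated degradation and SREBP partners, 2 rose, 0 fell and 12 did not pass (median 0.06). Vcp, the ATPase that pulls proteins out of the endoplasmic reticulum, rose from 7267 to 9783 normalized counts (log2 fold change 0.43, limma adjusted p = 0.00393). Its adaptor Ubxn4 rose from 1709 to 2140.1 (log2 fold change 0.32, limma adjusted p = 0.00748), a call lost with scaling by total reads (0.0610) and without control 2 or knockout 1. Of 11 sterol carriers and lysosomal genes, 2 rose, 1 fell and 8 did not pass (median 0.06). Lbr, a nuclear envelope protein with the same sterol C14 reductase activity as Tm7sf2, fell from 812 ± 8.06 to 515 ± 72.3 (n = 3, log2 fold change -0.67, SE 0.10, limma adjusted p = 0.000839). The carriers Osbpl8 and Osbpl2 rose (log2 fold change 0.36 and 0.38, limma adjusted p = 0.00470 and 0.0288), and Osbpl2 lost its call with scaling by total reads (0.102) and without any library other than control 1.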

How the data were processed

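Per the deposited table's columns, the authors gave counts per gene divided by 1 factor per library, a normalized signal, with group means, a log2 fold change, p-values and gene positions on mm10. Dividing by each library's smallest step recovered whole reads for 100.0% of values (within 0.001). Per the submitters' processing notes, HISAT2 2.1.0, Bowtie2 2.2.3 and HTSeq 0.6.0 were used for RNA, and BWA, SAMtools, MACS2, deepTools and DESeq2 for ChIP. The deposited RNA fold changes of the sterol genes nevertheless match a DESeq2 fit, given as control over knockout. The deposited peak lists gave a score, a fold enrichment (ratio), −log10 p and −log10 q per peak. The sources used here name no input control or peak threshold, and the lowest deposited −log10 q was 1.30.

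Knockout and control were compared by limma 3.58.1 (R 4.3.3) with a trend on log2(value + 1), for 20595 genes (those whose mean reached 1 in at least 1 group) and Benjamini-Hochberg adjustment over all of them, threshold 0.05. Fold changes are knockout over control on that log2 scale, which understates changes of low genes. The script was tested on simulated data. The 17 alternatives were pseudocounts of 0.5 and 5, no filter or a mean of at least 10, scaling by total reads or TMM, edgeR 4.0.16 (TMM and upper quartile), DESeq2 1.42.0 and limma voom on recovered reads, a replicate block and each library left out. Peaks were assigned within 1 kb of the deposited start site. Members, roles, lists and markers were chosen with earlier results of these data known. All members are named, with full statistics for those past the threshold and for the highest per kb and most changed of each role. Of each further list, up to 4 genes past the threshold are named.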

Additional observations from a re-analysis of the deposited data

How the results depend on the processing

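No called sterol gene changed sign in any of the 17 alternatives, and 7 of the 22 uncalled genes did in some. Each of the 7 called genes lost its call in at least 1 alternative. The number of sterol genes called was 7 and ranged from 0 to 9 with 1 library left out: 9 without control 1, 0 without control 2, 4 without control 3, 3 without knockout 1, 1 without knockout 2 and 1 without knockout 3. Higher calls then ranged from 0 to 4 and lower calls from 0 to 5, while 2029 to 5716 genes of the whole table were called (4298 with all libraries). Fewer samples enter these fits. Higher calls fell to 0 with scaling by total reads, with TMM scaling, in edgeR with TMM and in limma voom, and lower calls rose to 8 with scaling by total reads. That scaling also moved the medians of the early mevalonate, late sterol, SREBP control and storage genes to -0.29, -0.025, 0.035 and -0.056. It moves the median of all genes by -0.13 and the share of higher calls from 49.8% to 26.7%. With 1 library left out these medians ranged from -0.17 to -0.10, from 0.021 to 0.18, from 0.11 to 0.20 and from 0.0051 to 0.15. Members with a peak numbered 21 to 27 in M1 and 18 to 28 in M2 over windows of 500 bp and 5 kb and a q of at most 1e-10. RefSeq starts, held for 24 members, gave 22 and 23.

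The labels do not say whether replicate numbers pair the libraries, and the correlations do not settle it. Deviations of same-numbered libraries correlated at 0.0947, 0.028 and 0.0567 over 14151 genes. Of the 6 libraries, 5 correlated best with their own number. With the replicate block, 5374 genes and 8 sterol genes (3 higher, 5 lower) were called, Npc1 being added (adjusted p = 0.00638 in limma). At this depth Fdps, with 37 reads over the knockouts, is the least precise value.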
